A study of Mus musculus with 12 samples.

Results

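The 8 genes described here, Aldh1a1, Aldh1b1, Aldh2, Aldh3a2, Aldh3b1, Aldh3b3, Aldh7a1 and Aldh9a1, encode aldehyde dehydrogenases and were taken by name from a table of 34745 mouse genes, in which each had 1 row. They are 8 of 21 aldehyde dehydrogenase genes in that table, and they were chosen by their counts in all 4 groups, that is, with those values known, so their levels and differences are given as a description without p-values. RNA came from all cells of the femoral bone marrow of 12 male mice of the outbred ICR strain, 3 to a group, and each mouse gave 1 library. Normal mice received saline only. Model mice received cyclophosphamide, an alkylating drug that is toxic to dividing cells, injected into the peritoneum on days 5 to 7 at a daily 80 mg/kg, and saline by mouth. QJSB mice received the same cyclophosphamide and, by mouth, a daily 3 g/kg of a granule made from Chinese herbal extracts. Leucogen mice received the same cyclophosphamide and a daily oral 20 mg/kg of leucogen, which is prescribed to raise leucocyte counts, and dosing by mouth lasted 1 week. The study asked how the granule acts on marrow depleted by cyclophosphamide, with leucogen as the reference drug.

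Aldehyde dehydrogenases oxidise aldehydes to carboxylic acids with NAD or NADP as the acceptor of electrons. Cyclophosphamide is activated in the liver to a hydroxylated form that opens to aldophosphamide, and an aldehyde dehydrogenase can oxidise aldophosphamide to an inactive acid before it releases the toxic mustard and acrolein. Within the family this reaction is best known for Aldh1a1 and, outside the 8 genes, for Aldh3a1 and Aldh5a1. The other members are known mainly for different aldehydes: Aldh2 for acetaldehyde in mitochondria, Aldh3a2 for long-chain fatty aldehydes, Aldh3b1 and Aldh3b3 for lipid-derived aldehydes at membranes, Aldh9a1 for aminoaldehydes including one in carnitine synthesis, Aldh7a1 for an intermediate of lysine breakdown, and Aldh1b1 for aldehydes in mitochondria. RNA was measured here and enzyme activity was not, so the name of detoxifying enzymes rests on background and not on these data.

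Library totals ran from 11172547 to 18545198 counts. Levels are given as CPM, counts scaled to a common library total after TMM normalization over the 12 libraries, except where genes are compared with each other, for which the deposited FPKM was used because it accounts for transcript length. Fold changes come from edgeR's quasi-likelihood fit of all genes in the libraries of the 2 groups compared. They are printed with 1 standard error (SE), computed as the absolute log2 fold change over the square root of the test's F statistic. A gene was called at a fold change over 1.5 in either direction with a Benjamini-Hochberg adjusted p under 0.05. The libraries model 1 and QJSB 1 stood apart within their groups. They had the lowest summed CPM of 12 late neutrophil markers, at 4819 and 7409, where the other model and QJSB libraries had 12124 to 38240. They also had the highest summed CPM of 7 stromal markers, at 730.2 and 892.0 against 175.6 to 245.8. Values without them are given beside the results they moved most.

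By FPKM, the family in normal marrow was led by Aldh1a1, and in the other groups it was not. Of the summed FPKM of all 21 aldehyde dehydrogenase genes, Aldh1a1 made up 47.4% ± 2.04 (SD, n = 3) in normal, 1.66% ± 1.16 in model, 1.23% ± 0.58 in QJSB and 0.86% ± 0.31 in leucogen. The share of Aldh3b1 was 16.0% ± 0.11 in normal, 25.2% ± 7.54 in model, 28.0% ± 7.90 in QJSB and 39.8% ± 0.61 in leucogen. Aldh2 came to 13.3% ± 0.78, 21.3% ± 2.21, 28.4% ± 6.14 and 26.9% ± 1.81 in the same order of groups. Aldh9a1 held 20.1% ± 2.69 of the family's FPKM in model and 15.4% ± 8.26 in QJSB, but 6.12% ± 0.49 in normal and 7.70% ± 0.92 in leucogen. The sum itself moved less than its makeup, from 139 ± 14.4 FPKM in model to 178 ± 3.64 in normal. The 8 members held 90.6% ± 0.97 of it in normal and 79.5% ± 2.93 in model, so that the other 13 genes took up the rest. At the low end by this scale were Aldh3b3, with group means from 0.12 to 2.17 FPKM, and Aldh7a1, with 0.35 to 0.82 FPKM.

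**Figure D1:**
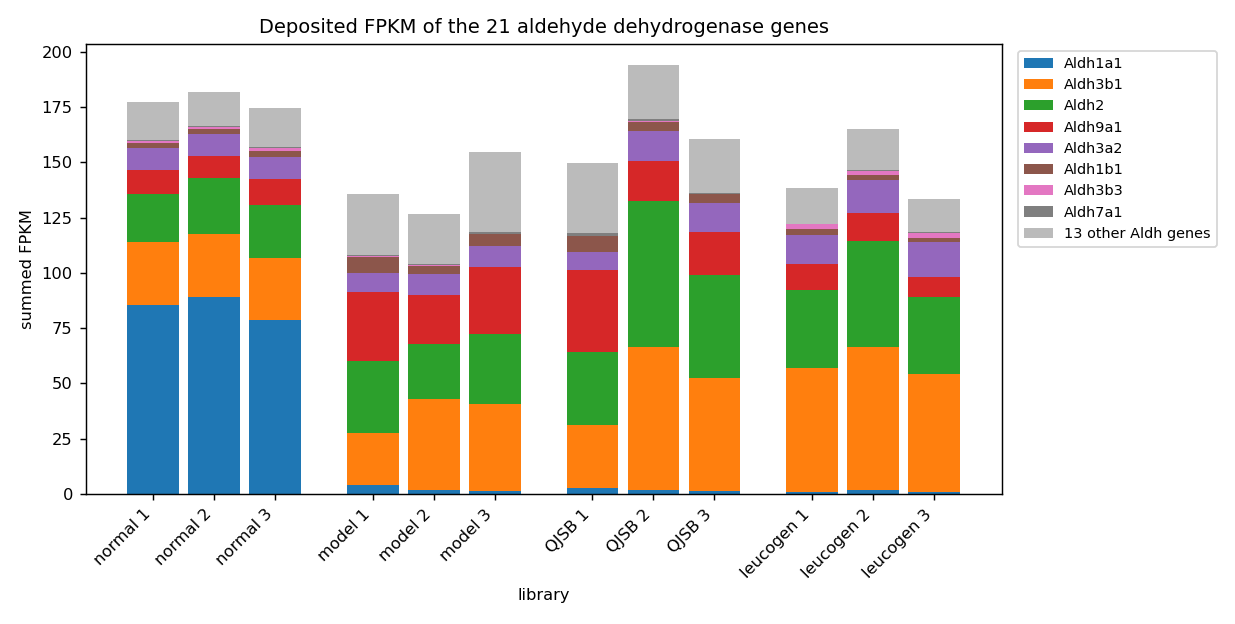
Summed FPKM of the 21 aldehyde dehydrogenase genes (vertical axis) in each of the 12 libraries (horizontal axis), with a coloured segment for each of the 8 members and grey for the other 13 genes. The lowest segment, Aldh1a1, makes up 47.4% of the mean sum in normal and at most 1.66% in the mean of any other group.

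Aldh1a1 encodes the cytosolic enzyme that oxidises retinal to retinoic acid and is the member best known for aldophosphamide. It lies on chromosome 19 from 20601961 to 20643462 on the plus strand of GRCm38 (ENSMUSG00000053279). Of its 50-base transcript stretches, 3.06% are shared with another gene, the nearby Aldh1a7. Its level was 179, 185 and 161 CPM in the 3 normal libraries, 7.34, 3.04 and 2.39 in model, 5.40, 3.79 and 3.06 in QJSB, and 2.22, 4.35 and 1.71 in leucogen. Every normal library lay far above every library of a mouse given cyclophosphamide, and those 9 libraries overlapped across their 3 groups. The log2 fold change against normal was -5.36 ± 0.41 (SE) in model, -5.42 ± 0.23 in QJSB and -5.94 ± 0.28 in leucogen. Between the drug groups and model it was -0.08 ± 0.46 for QJSB and -0.60 ± 0.50 for leucogen. Model 1 had the highest Aldh1a1 of the treated libraries. Without it the log2 fold change was -6.02 for model against normal, 0.57 for QJSB against model and 0.06 for leucogen against model, so that the sign of the last pair turned. Markers of erythroid cells differed between the same libraries. The summed CPM of the 11 erythroid markers in the table, among them the globin genes Hbb-bs and Hba-a1, was 16844 to 20621 in normal, 180.7 to 1735 in model, 232.2 to 670.7 in QJSB and 181.2 to 689.4 in leucogen, with the highest treated value again in model 1. All 11 were called lower against normal in each of the 3 treated groups. Over all genes, 19.0% were called lower in model, 19.9% in QJSB and 19.8% in leucogen. Erythroid markers were not alone in this. Pre-B and mature B cell markers also had their highest sums in normal and, among treated libraries, in model 1 (158.8 and 9.65 CPM). In model, 7 of 8 pre-B, 6 of 6 mature B and 6 of 7 eosinophil markers were called lower than in normal. The part of these markers in the Aldh1a1 result was not tested. In bulk marrow, fewer cells of a type and less RNA per cell cannot be told apart.

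The RefSeq promoter windows below run from 250 bases before to 50 bases after the annotated start, on the gene's own strand. They are shown for the members whose groups differed most, Aldh1a1 and Aldh3b3, and for Aldh3b1, the other Aldh3b gene among the members. Windows of 6 of the 8 members were searched, and none was searched for Aldh2 or Aldh7a1. Capitals mark every match, on either strand, to the letters of 8 motifs. These were TATAAA for the core promoter element of that name, CCAAT for the box named after it, AGATAA for factors of the GATA family, TTNCNNAA for C/EBP factors, GAGGAA for PU.1, TGANTCA for AP-1 factors, TGACNNNGC for the antioxidant response element, and GGGCGG for Sp1. The Aldh1a1 window is chr19:20601718-20602017 on the plus strand of GRCm38.p6, that of Aldh3b3 is chr19:3958558-3958857 on the plus strand, and that of Aldh3b1 is chr19:3929729-3930028 on the minus strand.
Aldh1a1: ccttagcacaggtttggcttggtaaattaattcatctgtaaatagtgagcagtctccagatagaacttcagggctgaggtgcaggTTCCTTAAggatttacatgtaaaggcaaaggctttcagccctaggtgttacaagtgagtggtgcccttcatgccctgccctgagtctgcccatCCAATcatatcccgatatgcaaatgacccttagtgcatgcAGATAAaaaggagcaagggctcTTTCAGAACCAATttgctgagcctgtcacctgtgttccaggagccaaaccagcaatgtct
Aldh3b3: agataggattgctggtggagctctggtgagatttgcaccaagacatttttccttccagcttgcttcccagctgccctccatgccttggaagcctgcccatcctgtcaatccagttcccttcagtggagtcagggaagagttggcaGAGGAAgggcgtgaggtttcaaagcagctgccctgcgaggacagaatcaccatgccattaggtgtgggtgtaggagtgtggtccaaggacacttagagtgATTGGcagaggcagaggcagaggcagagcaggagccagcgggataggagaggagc
Aldh3b1: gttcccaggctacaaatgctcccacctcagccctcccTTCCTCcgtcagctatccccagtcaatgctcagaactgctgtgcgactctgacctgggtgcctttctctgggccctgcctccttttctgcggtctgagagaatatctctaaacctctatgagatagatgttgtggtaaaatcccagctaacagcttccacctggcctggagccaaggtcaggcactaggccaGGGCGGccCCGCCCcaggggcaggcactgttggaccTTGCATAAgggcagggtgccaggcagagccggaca

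The Aldh1a1 window held AGATAA with its first base 32 bases before the start (position -32), CCAAT at -72 and -2, and C/EBP letters at -165 and -10, the last of which end where the CCAAT at -2 begins. AGATAA occurs in 11.2% of 32851 promoter windows of this length, CCAAT in 37.4% and the C/EBP letters in 40.7%. The same window had 47% G and C and 1 CpG, against a median of 52.7% and 7 over all windows. In the Aldh3b3 window GAGGAA stood at -105 and CCAAT at -5. The Aldh3b3 gene as counted begins at 3958645, inside this window and before the start used here. Both matches thus lie within the counted gene. In that of Aldh3b1 GAGGAA stood at -213, GGGCGG at -21 and -13, and C/EBP letters at 15. GAGGAA is found in 28.3% of all windows and GGGCGG in 35.7%. AGATAA was also present in the window of Aldh9a1, at -150, so it was in 2 of the 6 members' windows. These are matches of letters only, and binding was not measured.

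**Figure D2:**
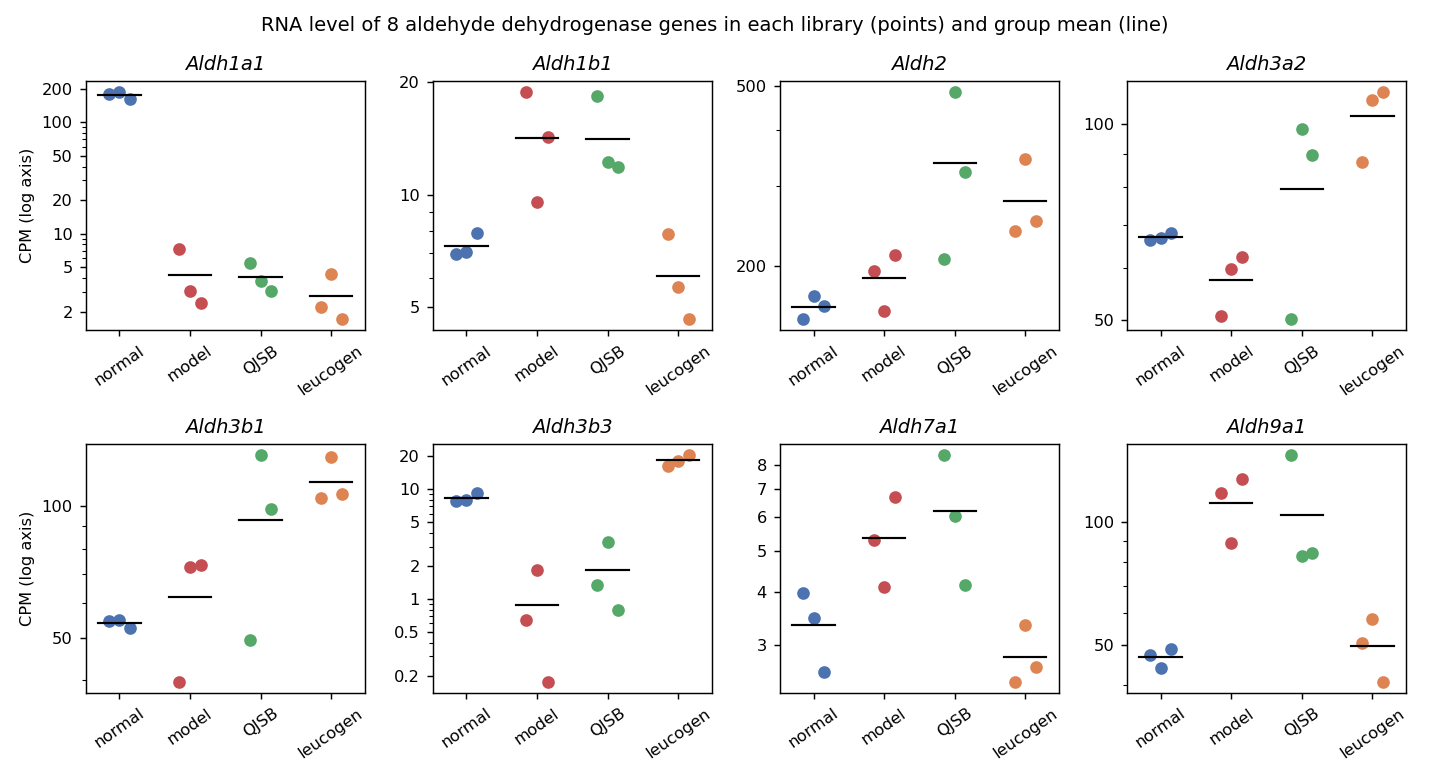
CPM (log axis) of the 8 members in each library, with 1 point for each of the 3 mice of a group and a line at the group mean. Aldh1a1 is set apart in normal (161 to 185 CPM), Aldh3b3 is highest in leucogen (16.5 to 20.5 CPM), and Aldh9a1 and Aldh1b1 have their highest means in model and QJSB.

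Aldh3b1 and Aldh3b3 encode membrane-bound enzymes that act on lipid-derived aldehydes. Their genes lie 28883 bases apart on chromosome 19, Aldh3b1 from 3913493 to 3929761 on the minus strand and Aldh3b3 from 3958645 to 3972103 on the plus strand. Aldh3b3 is followed after 224 bases by Aldh3b2. The 3 genes share sequence: 12.8% of the 50-base stretches of Aldh3b3 transcripts, 8.97% of Aldh3b1 and 24.2% of Aldh3b2 occur in a transcript of another gene, so part of the reads could have been assigned to the wrong copy. Aldh3b3 had 7.80, 8.05 and 9.27 CPM in normal, 0.64, 1.84 and 0.18 in model, 1.35, 3.32 and 0.80 in QJSB, and 16.5, 18.1 and 20.5 in leucogen. Leucogen libraries were all above normal, and normal libraries were all above those of model and QJSB, which overlapped. It had the widest span of group means after Aldh1a1, with leucogen 20.8 times model, where Aldh1a1 had 63.5 times between normal and leucogen. In model the level rested on 11, 26 and 3 counts, so few counts carry it.

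The log2 fold change of Aldh3b3 was -3.29 ± 0.60 for model against normal, 4.43 ± 0.60 for leucogen against model and 1.15 ± 0.15 for leucogen against normal. For QJSB it was 1.04 ± 0.80 against model, -2.20 ± 0.46 against normal and -3.37 ± 0.44 against leucogen. Model 2 and QJSB 2 held the highest counts of their groups. Without model 2 the log2 fold changes were -4.34 for model against normal and 5.52 for leucogen against model, and without QJSB 2 they were -2.94 for QJSB against normal and -4.09 for QJSB against leucogen. Aldh3b1 differed less and in another order. It had 54.7, 54.99 and 52.6 CPM in normal, 39.6, 72.7 and 73.3 in model, 49.3, 131 and 98.3 in QJSB, and 105, 130 and 106 in leucogen. The leucogen libraries were above all normal and model libraries, while QJSB spanned the range from normal to leucogen. Its log2 fold change was 0.89 ± 0.23 for leucogen against model, 1.09 ± 0.10 for leucogen against normal, 0.57 ± 0.37 for QJSB against model and 0.18 ± 0.22 for model against normal. Model 1 and QJSB 1 had the lowest Aldh3b1 of all 12 libraries. Without QJSB 1 the log2 fold change of QJSB was 0.87 against model, 1.07 against normal and -0.03 against leucogen. Without model 1 it was 0.43 for model against normal and 0.67 for leucogen against model.

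Late neutrophil markers had their highest sums in the leucogen libraries, as Aldh3b3 did. The summed CPM of 12 such markers, among them the granule genes Ltf and Camp, was 19289 to 23008 in normal, 4819 to 19946 in model, 7409 to 38240 in QJSB and 49139 to 58263 in leucogen. Of the 12, 7 were called higher in leucogen than in model (11.6% of all genes) and 4 lower in model than in normal (19.0%). Normal libraries had Aldh3b3 at 7.80 to 9.27 CPM. Model 1, 2 and 3, with neutrophil sums of 4819, 19946 and 12124, had 0.64, 1.84 and 0.18 CPM. QJSB 1, 2 and 3, with sums of 7409, 38240 and 28353, had 1.35, 3.32 and 0.80 CPM. The summed CPM of 7 eosinophil markers was 1395 to 1733 in normal and 72.02 to 275.6 over the treated libraries. The part of these markers in the results of Aldh3b1 and Aldh3b3 was not tested.

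**Figure D3:**
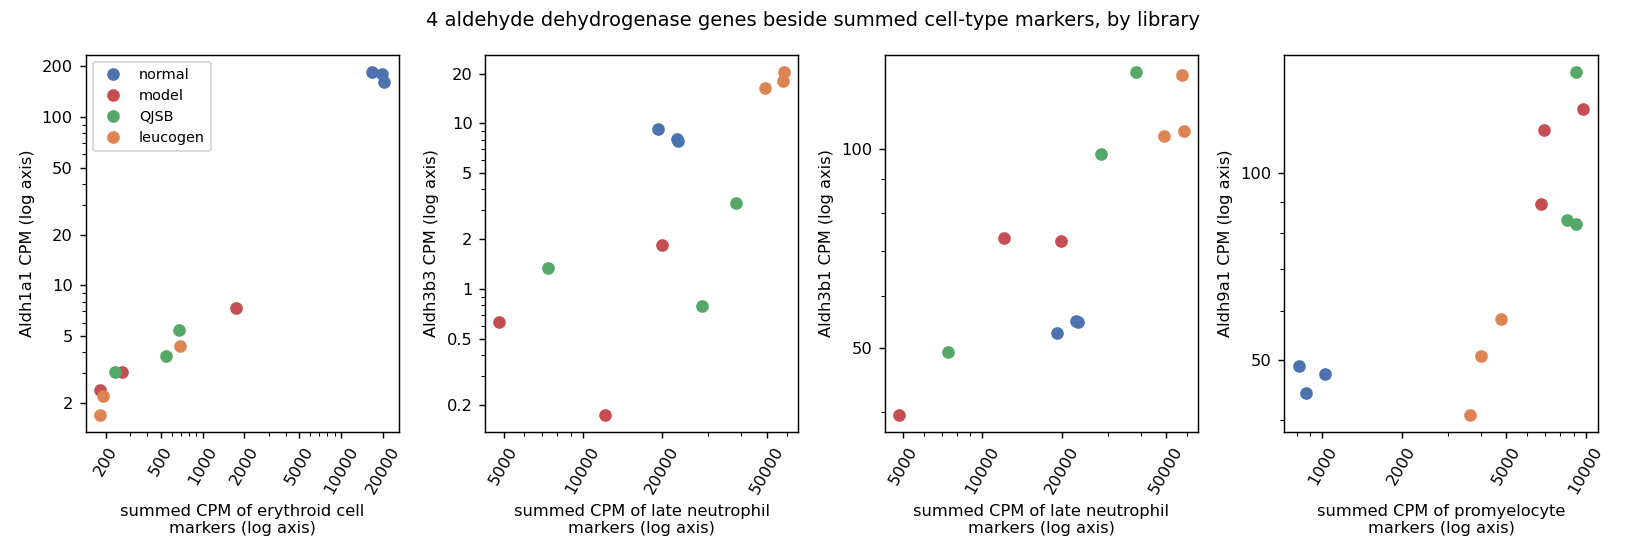
CPM of 4 members (vertical axes) against the summed CPM of erythroid, late neutrophil or promyelocyte markers (horizontal axes), both on log axes, with 1 point for each library coloured by group. The normal libraries stand apart at high erythroid sums and high Aldh1a1, and the leucogen libraries at neutrophil sums from 49139 to 58263.

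Aldh3a2 and Aldh2 were also highest in the drug groups. Aldh3a2, the fatty aldehyde dehydrogenase on chromosome 11 (61223417 to 61267464, minus strand), had 66.5, 66.9 and 67.9 CPM in normal, 50.7, 59.9 and 62.4 in model, 50.1, 98.6 and 89.6 in QJSB, and 87.6, 109 and 112 in leucogen. The leucogen libraries were above all normal and model libraries, and QJSB 1 was the lowest of the 12. The log2 fold change was 0.85 ± 0.15 for leucogen against model, 0.63 ± 0.11 for leucogen against normal, -0.23 ± 0.13 for model against normal and 0.44 ± 0.25 for QJSB against model, the last 0.69 without QJSB 1. Aldh2, the mitochondrial enzyme of acetaldehyde on chromosome 5 (121566027 to 121593824, minus strand), had 152, 171 and 162 CPM in normal, 194, 158 and 211 in model, 206, 485 and 323 in QJSB, and 239, 346 and 251 in leucogen. The leucogen libraries were above all model libraries, and QJSB 1 lay within the range of model. For Aldh2 the log2 fold change was 1.06 ± 0.27 for QJSB against normal, 0.80 ± 0.13 for leucogen against normal, 0.58 ± 0.18 for leucogen against model and 0.21 ± 0.13 for model against normal. Between QJSB and model it was 0.83 ± 0.29, or 1.08 without QJSB 1, and within QJSB the level ran from 206 to 485 CPM.

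Aldh9a1, Aldh1b1 and Aldh7a1 had their higher levels in model and QJSB and their lower levels in normal and leucogen. Aldh9a1, on chromosome 1 (167349991 to 167368532, plus strand), acts on aminoaldehydes and in carnitine synthesis. It had 47.4, 44.1 and 48.9 CPM in normal, 118, 89.2 and 127 in model, 146, 82.7 and 84.1 in QJSB, and 50.7, 58.1 and 40.7 in leucogen. All model and QJSB libraries were above all normal and leucogen libraries. Its log2 fold change was 1.24 ± 0.15 for model against normal, 1.15 ± 0.23 for QJSB against normal, -1.14 ± 0.18 for leucogen against model and 0.11 ± 0.13 for leucogen against normal. QJSB 1 had the highest level of the 12, and without it QJSB against normal was 0.82 and QJSB against leucogen 0.70 in place of 1.03 ± 0.24.

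Aldh1b1, a mitochondrial enzyme on chromosome 4 (45799022 to 45804604, plus strand), had 6.93, 7.03 and 7.91 CPM in normal, 18.7, 9.55 and 14.2 in model, 18.3, 12.2 and 11.8 in QJSB, and 7.84, 5.66 and 4.65 in leucogen. Here too the model and QJSB libraries did not overlap with those of normal or leucogen. The log2 fold change of Aldh1b1 was 0.95 ± 0.25 for model against normal, 0.95 ± 0.22 for QJSB against normal, -1.21 ± 0.30 for leucogen against model and 1.18 ± 0.27 for QJSB against leucogen. Without model 1 it was 0.71 for model against normal and -0.94 for leucogen against model, and without QJSB 1 it was 0.71 for QJSB against normal and 0.94 for QJSB against leucogen. Aldh7a1, an enzyme of lysine breakdown on chromosome 18 (56509687 to 56572951, minus strand), had 3.97, 3.48 and 2.59 CPM in normal, 5.31, 4.10 and 6.71 in model, 8.42, 6.06 and 4.16 in QJSB, and 2.46, 3.34 and 2.66 in leucogen. Its groups lay in the same order of high and low without overlap, though the lowest model value of 4.10 and the highest normal value of 3.97 were close. The log2 fold change of Aldh7a1 was 0.67 ± 0.28 for model against normal, 0.89 ± 0.32 for QJSB against normal, -0.91 ± 0.29 for leucogen against model and 1.10 ± 0.32 for QJSB against leucogen. Without QJSB 1 it was 0.60 for QJSB against normal and 0.81 for QJSB against leucogen, and QJSB against model was -0.09 in place of 0.19. The gene overlaps Phax on the opposite strand over 10509 bases, and Phax had 19.0, 28.9, 27.7 and 20.5 CPM as its means in normal, model, QJSB and leucogen. Libraries were strand-specific, but whether the counting used the strand is not given in the sources used here, so reads of the pair could be mixed. Promyelocyte markers were high in the same groups, with summed CPM of 7 genes such as Mpo and Elane at 813.3 to 1020 in normal, 6756 to 9797 in model, 8478 to 9215 in QJSB and 3629 to 4771 in leucogen. Leucogen libraries thus had promyelocyte sums above normal while their Aldh9a1 overlapped with normal, and the part of these markers in the result was not tested.

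**Figure D4:**
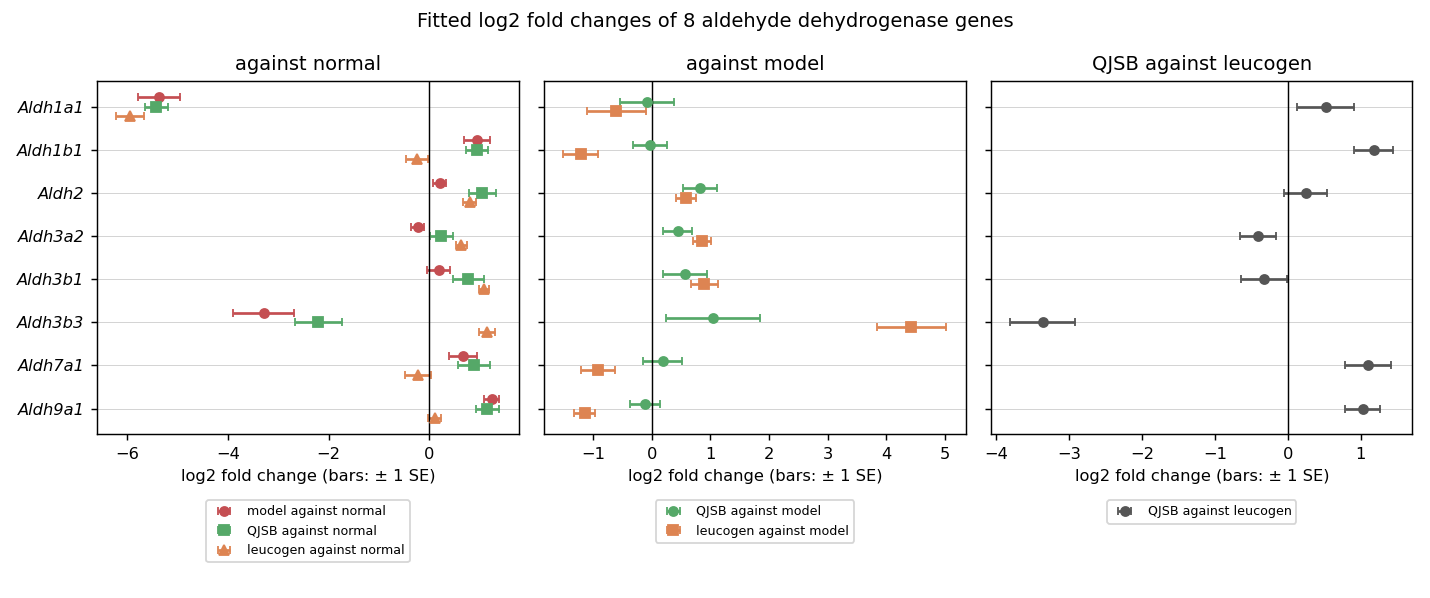
Fitted log2 fold change (horizontal axis, bars ± 1 SE) of the 8 members in the 6 comparisons, with 3 libraries in each group. Aldh1a1 lies from -5.94 to -5.36 against normal in all 3 treated groups, Aldh3b3 lies at 4.43 for leucogen against model and -3.29 for model against normal, and the values for QJSB against model run from -0.11 to 1.04.

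For the effect of cyclophosphamide, model against normal, 4 of the 8 members were called: Aldh9a1 and Aldh1b1 higher and Aldh1a1 and Aldh3b3 lower. Over all 14752 genes tested, 35.1% were called, 16.1% higher and 19.0% lower. The split was 2368 higher and 2803 lower with TMM, 3024 and 2346 with total counts, and 2953 and 2676 on FPKM. The groups did not overlap for 6 of the 8 members and for 55.4% of all genes. The median log2 fold change was 0.19 over the members and 0.02 over all genes. The model and normal libraries overlapped at Aldh3b1 and Aldh2. The call of Aldh1b1 was lost without normal 1 or normal 2, and Aldh7a1 was called without model 2 and with total counts.

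For the granule, QJSB against model, none of the 8 members was called by edgeR's quasi-likelihood test, and 0% of the 14486 genes tested were, the smallest adjusted p being 0.767 by edgeR with Benjamini-Hochberg adjustment. Of all genes, 723 had an unadjusted p under 0.05 in edgeR, a number that ran from 183 when QJSB 2 was dropped to 2291 when QJSB 1 was, and that came to 1434 with the block described next. DESeq2 called 8 genes, and the replicate number as a block in edgeR called 18, with 0 members in either. At the same fold change with an unadjusted p under 0.05, 3.08% of all genes passed and 1 member, Aldh2. QJSB and model libraries overlapped at all 8 members and were apart for 9.84% of all genes. The median log2 fold change was 0.32 over the members and -0.02 over all genes. That cutoff was passed by 446 genes, by 149 if QJSB 2 was dropped, by 1715 if QJSB 1 was, and with the block by 830 genes and 2 members, Aldh2 and Aldh3b3. Without QJSB 1, 3 members passed it, and without QJSB 2 none did. The largest values were 1.04 ± 0.80 at Aldh3b3, where the error is nearly the size of the difference, and 0.83 ± 0.29 at Aldh2. At Aldh3b3 the value was 2.13 without model 2 and 0.30 without QJSB 2, so leaving out 1 library moved it by over 1.5 times.

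For the reference drug, leucogen against model, 6 of the 8 members were called, 3 higher (Aldh3b3, Aldh3b1 and Aldh3a2) and 3 lower (Aldh9a1, Aldh1b1 and Aldh7a1). Of the 14184 genes tested, 23.1% were called, 11.6% higher and 11.5% lower. This split depended on the scaling: it was 1640 higher and 1635 lower with TMM, 1150 and 2655 with total counts, and 1183 and 2445 on FPKM. Aldh2 stopped just short of the fold cutoff at 0.58 and was called by DESeq2 (0.60), with DESeq2's size factors in edgeR (0.61) and without model 3 (0.70), and Aldh1a1 was the only member at which leucogen and model libraries overlapped, where 45.9% of all genes did not. The median log2 fold change was -0.01 over the members and -0.05 over all genes. The number called was 3 without leucogen 2 or leucogen 3. Aldh3b1 lost its call whichever leucogen library was left out, and Aldh1b1 lost it without model 1, leucogen 2 or leucogen 3. Aldh7a1 lost it by DESeq2, with the replicate block, on FPKM, and without each of the 6 libraries except model 2.

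Against normal, the QJSB group had 5 members called, Aldh2, Aldh9a1 and Aldh1b1 higher and Aldh1a1 and Aldh3b3 lower, beside 37.9% of 14817 genes, 18.0% higher and 19.9% lower. The call of Aldh2 was lost whichever normal library was left out. Aldh3b1 was called without QJSB 1 (1.07), and Aldh7a1 in the fit of all 12 libraries (0.88), with the replicate block (0.86) and without QJSB 3 (1.11). Leucogen against normal had 5 called as well, Aldh3b3, Aldh3b1, Aldh3a2 and Aldh2 higher and Aldh1a1 lower, beside 37.7% of 14637 genes, 17.8% higher and 19.8% lower. The call of Aldh3a2, at 0.63, fell under the fold cutoff without leucogen 2 or leucogen 3, with total counts (0.57) and on FPKM (0.56), and that of Aldh3b3 was lost when all 12 libraries were fitted together. Between the drugs, QJSB against leucogen, 4 were called, Aldh9a1, Aldh7a1 and Aldh1b1 higher in QJSB and Aldh3b3 lower, beside 24.6% of 14266 genes, 12.9% higher and 11.7% lower. Their number was 1 without leucogen 3, which left Aldh3b3, and 2 without leucogen 1. Aldh7a1 lost its call on FPKM and without each of the 6 libraries except QJSB 3. The comparisons share groups, so their members' values are not independent of each other. Group separation was seen at 6 members for QJSB against normal (58.4% of all genes), 5 for leucogen against normal (61.8%) and 4 for QJSB against leucogen (48.9%).

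Of the other 13 aldehyde dehydrogenase genes, 7 were tested in each comparison and 6 had too few counts. In QJSB against model Aldh1l2 was tested in place of Aldh3b2. In model against normal, 4 of the 7 rose and 1 fell past the cutoff of edgeR's test with Benjamini-Hochberg adjusted p. Over all genes tested, 16.1% rose and 19.0% fell past it. Those that rose were Aldh1l1, a folate enzyme (log2 fold change 2.39 ± 0.41 SE, adjusted p = 0.00229), Aldh5a1, the succinate semialdehyde dehydrogenase (1.64 ± 0.42, adjusted p = 0.0148), Aldh4a1, an enzyme of proline breakdown (1.17 ± 0.21, adjusted p = 0.00255), and Aldh16a1 (0.60 ± 0.17, adjusted p = 0.0232). Aldh3b2 fell by 3.98 ± 0.80 in log2 units (edgeR adjusted p = 0.00460). Its pattern was like that of its neighbour Aldh3b3 in these 2 groups. It had 2.89, 1.91 and 3.55 CPM in normal, 0, 0.50 and 0.058 in model, 0.054, 0.29 and 0.061 in QJSB, and 2.69, 4.13 and 2.47 in leucogen. Normal and leucogen libraries overlapped at Aldh3b2, whereas at Aldh3b3 all leucogen libraries were higher.

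In leucogen against model, Aldh3b2 rose by 4.14 ± 0.78 (edgeR adjusted p = 0.00774), and Aldh5a1 and Aldh18a1, an enzyme of proline synthesis, fell by 1.91 ± 0.45 and 1.66 ± 0.37 (edgeR adjusted p = 0.0151 and adjusted p = 0.0169). Aldh5a1 had 1.16, 1.501 and 0.75 CPM in normal, 5.26, 3.25 and 2.22 in model, 4.43, 2.86 and 2.02 in QJSB, and 0.63, 1.31 and 0.85 in leucogen. It was thus high in the groups in which Aldh9a1, Aldh1b1 and Aldh7a1 were high. In QJSB against model 0 of the 7 passed by edgeR or DESeq2, and 0 did at the unadjusted cutoff in edgeR. In QJSB against normal 5 rose, including Aldh6a1 (0.69 ± 0.19, edgeR adjusted p = 0.0219), and 1 fell. In leucogen against normal 2 rose and 1 fell, and in QJSB against leucogen 4 were higher and 1 lower in QJSB. Over all genes tested, 23.1% were called in leucogen against model and 37.9% in QJSB against normal. The shares were 37.7% in leucogen against normal and 24.6% in QJSB against leucogen. Aldh3a1, which like Aldh5a1 is known for aldophosphamide, was too low to test, with group means from 0 to 0.27 CPM and 0 counts in all 3 leucogen libraries. In a leucogen library a count of 0 allows up to 3 counts.

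Genes of other routes by which cyclophosphamide products and aldehydes are handled were taken as lists. The counts called in each list stand beside shares over all genes of 35.1% in model against normal and 23.1% in leucogen against model. Activation, 14 cytochrome P450 genes and their reductase Por, had 2 of 15 genes tested and 0 called in model against normal. Por fell by 0.73 ± 0.12 in leucogen against normal (edgeR adjusted p = 5.91e-04), and it was higher in QJSB than in leucogen by 1.02 ± 0.18 (edgeR adjusted p = 0.00544). Of the 23 glutathione transferase genes, which conjugate electrophiles to glutathione, 15 were tested in model against normal, and 5 rose (Gstm1, Gstm4, Gsto1, Gstt3 and Gstz1) and 4 fell (Mgst3, Gstm5, Gstt1 and Gsta4). Gstm1 rose by 3.27 ± 0.28, from 24.8 ± 3.33 to 242 ± 97.1 CPM (SD, n = 3, edgeR adjusted p = 9.68e-05). Mgst3 fell by 3.45 ± 0.16 (edgeR adjusted p = 5.94e-06) and Gstm5 by 2.68 ± 0.23 (edgeR adjusted p = 7.63e-05). In leucogen against model, 2 of 13 rose, Mgst2 by 1.35 ± 0.23 (edgeR adjusted p = 0.00552) and Mgst1 by 1.11 ± 0.23 (edgeR adjusted p = 0.0107), and 4 fell (Gsto1, Gstm4, Gstp1 and Mgst3). Transferase genes of the Gstm group are close paralogs, between which reads may be split.

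Of the 17 genes that reduce aldehydes and ketones, 12 were tested in model against normal, and 5 rose (Ptgr1, Akr1a1, Akr1b10, Akr7a5 and Cbr4) and 1 fell (Cbr2). Akr1a1, which encodes aldehyde reductase, rose by 0.92 ± 0.15 in model against normal (edgeR adjusted p = 0.00176) and fell by 1.11 ± 0.16 in leucogen against model (edgeR adjusted p = 0.00321), the same directions as Aldh9a1 and Aldh1b1. In leucogen against model 0 of the 12 rose and 4 fell (Akr1a1, Akr1b3, Akr1e1 and Akr7a5). Of the 20 genes of the retinoic acid pathway, to which Aldh1a1 belongs by its enzyme reaction, 11 were tested in model against normal. Dhrs9, which encodes a retinol dehydrogenase, fell by 2.54 ± 0.62 (edgeR adjusted p = 0.0183). In leucogen against normal Rara and Rarg, receptors of retinoic acid, fell by 0.86 ± 0.14 and 0.68 ± 0.20 (edgeR adjusted p = 4.61e-04 and adjusted p = 0.0189). In leucogen against model Rdh12 and Rdh10, genes of enzymes that interconvert retinol and retinal, rose by 1.35 ± 0.36 and 0.70 ± 0.19 (edgeR adjusted p = 0.0309 and adjusted p = 0.0245). In QJSB against model 0 genes of these 4 lists were called by edgeR or by DESeq2, and 1, Gstm1, passed the unadjusted cutoff in edgeR. Genes of these lists without a value were named after their values were seen.

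The genes whose log2 CPM over the 12 libraries was most like that of a member were sought among 8786 genes. Pearson's r across these libraries reflects mainly that they fall into groups and is given as a description. For Aldh1a1 they were Bpgm, the red cell enzyme of bisphosphoglycerate (r = 0.997), Nxpe2 and the transcription factor gene Sox6 (both 0.996). For Aldh3b3 the 3 genes were RP23-8I8.3 (0.958), Hgf (0.957) and Gsap (0.955), and for Aldh3b1 Klf7 (0.990), Mapk13 (0.987) and Sp100 (0.984). Aldh9a1 was most like the mitochondrial genes Idh2 (0.992) and Suclg1 (0.987) and Rpn1 (0.988). Aldh7a1 was nearest to Ndufb8 (0.971) and Aldh1b1 to Tbl3 (0.973), Aldh3a2 to Klf6 (0.982) and Aldh2 to Xdh (0.967). Spread within groups also differed among members. In normal the SD of log2 CPM was 0.016 at Aldh3a2 to 0.30 at Aldh7a1, whereas at Aldh3b3 it reached 1.34 in model and 0.96 in QJSB.

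The remaining markers of cell types in the marrow were as follows. Pre-B cell markers summed to 1395 to 1578 CPM in normal and 5.13 to 158.8 over the treated libraries, and mature B cell markers to 590.4 to 705.5 and 2.08 to 9.65, with Cr2 at 0 in all leucogen and Fcer2a at 0 in all QJSB libraries. Monocyte and macrophage markers summed to 612.5 to 1066 CPM and megakaryocyte markers to 108.1 to 420.3 over the 12 libraries. The monocyte and macrophage sum covers changes in both directions. Of the 10 markers, 4 were called higher and 3 lower in model against normal, beside 16.1% and 19.0% of all genes. In leucogen against model 0 were called higher and 5 lower (11.6% and 11.5% of all genes). Against normal, 2 were higher and 6 lower in leucogen (17.8% and 19.8%), and 2 and 4 in QJSB (18.0% and 19.9%). Stem and progenitor cell markers summed to 158.9 to 178.3 CPM in normal, 257.5 to 431.3 in model, 258.7 to 425.1 in QJSB and 171.6 to 188.6 in leucogen. These sums too were higher where Aldh9a1, Aldh1b1 and Aldh7a1 were. Of the 8 markers, 5 were called higher in model than in normal (16.1% of all genes). Only 1 was called lower in leucogen than in model (11.5%) and 1 higher in QJSB than in leucogen (12.9%). Their part in the members' results was not tested.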

How the data were processed

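Total RNA of femoral marrow cells was depleted of ribosomal RNA and made into strand-specific libraries by the authors, who cleaned the reads with Seqtk and aligned them to GRCm38.p4 (mm10) with Hisat2. The deposited table holds unnormalized read counts and FPKM for each library, the FPKM computed by the authors from mapped fragments, transcript length and total fragments. The counting program and annotation version are not given in the sources used here. A result of the retinoic acid list is not reported here. Column headings other than Model were read as normal (Blank), leucogen (Positive) and, by elimination, QJSB (Stilbene). This reading was compared with mean normalized counts listed by the authors, and 298, 300 and 300 of 300 genes lay within 1% (at most 10 for any other pairing), so the assignment rests in part on values. The table left 0 columns of samples unused.

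Counts were tested with edgeR 4.0.16 in R 4.3.3 (TMM, filterByExpr, robust glmQLFit, glmQLFTest), 2 groups at a time. The fit was tried on simulated counts of leucogen against model only, which do not cover the spread of the QJSB libraries. Log2 CPM used a prior count of 2. The 8 members, the pathway lists and the marker lists were chosen with earlier results of these data known. Genes named besides the members are aldehyde dehydrogenase genes called in any comparison, Aldh3a1, up to 3 called genes per list and comparison with the largest change and a mean normalized count of at least 50, not all of which are printed, and the 3 genes most like a member, of mean CPM at least 10. Transcript sequence shared between genes was counted in GENCODE M21, and promoters are RefSeq's. Replicates are separate mice, and pairs differed by more than sampling noise (chi-square per degree of freedom 10.2 to 99.6). Intervals from counting would cover counting error only. Same-numbered libraries deviated together for QJSB and model (r = 0.453, 0.136 and 0.102) and for QJSB and leucogen (0.174, 0.157 and 0.110), each over 0.1, a pairing that comes from the data alone. The alternatives were DESeq2 1.42.0, its size factors, total counts, no filter, a joint fit of all 12 libraries, a minimum of 10 counts per library, the replicate block, limma 3.58.1 on log2(FPKM + 0.1), and each library left out.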

Additional observations from a re-analysis of the deposited data

How the results depend on the processing

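Leaving out 1 library at a time moved the number of genes called to 4136 to 5436 for model against normal, 0 to 3 for QJSB against model (3 without QJSB 1), 1239 to 3953 for leucogen against model (1239 without leucogen 3, 1724 without leucogen 1), 4486 to 6151 for QJSB against normal, 5233 to 5563 for leucogen against normal, and 1544 to 3585 for QJSB against leucogen (1544 without leucogen 3, 2157 without leucogen 1). Members called moved to 3 to 5, 0 to 0, 3 to 6, 4 to 6, 4 to 5 and 1 to 4 in the same order. Such fits have fewer samples. For QJSB against model, DESeq2 called 8 genes and the replicate block 18, where edgeR without the block called 0, and the cause was not tested. In QJSB against leucogen the block changed no member's call. For leucogen and model, r of the same-numbered libraries was mixed, at 0.125, -0.103 and -0.022. For QJSB and normal it was -0.075, 0.030 and -0.027. With the block Aldh7a1 was no longer called in leucogen against model (log2 fold change -0.89) and was called in QJSB against normal (0.86). Of 669 log2 fold changes of members under the alternatives, 659 moved by less than the spread between replicates and 10 by more. That spread was the SD of log2 CPM pooled over the 2 groups. Leaving out 1 of 3 libraries can hardly shift a group's mean by that much, so the tally cannot show that those fits are stable. No call of a member turned its direction under any alternative run. With total counts instead of TMM, the median log2 fold change over the genes tested came to 0.14 against 0.02 for model against normal, -0.22 against -0.05 for leucogen against model and 0.12 against 0.03 for QJSB against leucogen. With 3 mice in each group, differences at genes with few counts, such as Aldh3b3 in model, carry wide errors.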
